A study of Mus musculus with 3 samples.

Results

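Spp1, the gene of the secreted glycoprotein osteopontin, and the genes of 6 chains that form its cell-surface receptors were followed in leukocytes of the mouse heart. The 7 genes, Spp1, Cd44, Itgav, Itgb3, Itgb1, Itga4 and Itgb5, were chosen by name among 32285 genes, and each symbol stood for 1 gene identifier in all 3 libraries. They were chosen with earlier results of these data known, among them the high Spp1 level after infarction. The levels of Spp1 and its ratios between libraries are therefore a description.

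The study made single-cell RNA libraries from CD45-sorted cells of hearts labelled MI-E, MI and Sham, with 1 library per group. All came from C57BL/6J mice of 8 to 9 weeks. MI stands for myocardial infarction by the title of the series, and MI-E is not spelled out. Here "infarct libraries" and "after infarction" mean MI-E and MI together, an assumption drawn from the name of MI-E. The labels attach the same surgery, a tie around the left anterior descending coronary artery, to every library, Sham included. How long after surgery the hearts were taken, and how many went into a library, is not stated. With 1 library in each group, a difference between groups has no replicate check, and no test was possible. Intervals are 95% intervals for counting error only, and PCR, sorting and animals add to them by an unknown amount.

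Osteopontin is bound through an arginine-glycine-aspartate (RGD) motif by integrins that pair the αv chain (Itgav) with a β3 (Itgb3), β5 (Itgb5) or β1 (Itgb1) chain. Cleavage by thrombin next to this motif exposes a further stretch that is bound by integrins containing the α4 or α9 chain, such as α4β1 (Itga4 with Itgb1). CD44, known best as a receptor for hyaluronan, also binds osteopontin. In the infarcted heart, macrophages are a known source of osteopontin, which takes part in leukocyte adhesion, scar formation and the survival and migration of infiltrating cells.

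The coding bases of the receptor-binding stretch are shown because they encode both integrin-binding sites named above. On GRCm38, in the GENCODE M21 transcript of Spp1, the stretch lies in exon 6 of 7 at chr5:104439469-104439519 on the plus strand, bases 418 to 468 of a coding sequence of 882 bases. Capitals mark the 3 codons of the RGD motif, bases 13 to 21 of the stretch, which the αv integrins bind. The 7 codons that follow, bases 22 to 42, encode the site for α4 and α9 integrins.
Spp1 coding stretch: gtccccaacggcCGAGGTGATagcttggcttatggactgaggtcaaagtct

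The 7 genes lie on 5 chromosomes. On GRCm38, Spp1 (ENSMUSG00000029304) spans chr5:104435118-104441050, Cd44 (ENSMUSG00000005087) chr2:102811141-102901665, Itgav (ENSMUSG00000027087) chr2:83724397-83806916 and Itga4 (ENSMUSG00000027009) chr2:79255426-79333123. Itgb3 (ENSMUSG00000020689) spans chr11:104608000-104670476, Itgb1 (ENSMUSG00000025809) chr8:128685654-128733200 and Itgb5 (ENSMUSG00000022817) chr16:33829665-33949338.

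The files hold unique molecular identifier (UMI) counts, in which each UMI stands for 1 captured transcript. After filtering, 11968 MI-E, 8188 MI and 10669 Sham cells remained, with medians of 7399, 9459.5 and 2770 UMIs per cell. Clusters were formed without the 7 genes and grouped into classes by marker genes, so every class name is to be read as "like" that cell type. Monocyte-macrophage cells numbered 6651 in MI-E, 6657 in MI and 5258 in Sham, and neutrophils 2989, 361 and 407. Although the sort was for leukocytes, endothelial cells and fibroblasts or mural cells were present in all 3 libraries. Levels are UMIs of a gene scaled to 1000000 UMIs of the class (CPM), a scale that does not depend on transcript length in a 3′ assay. Comparisons of a class needed 50 or more cells in each library.

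In monocyte-macrophage cells, Spp1 stood at 6593 CPM in MI-E and 6909 in MI, against 39.4 CPM in Sham. The ratio of MI over Sham was 176 (interval 164 to 188) and that of MI-E over Sham 168 (157 to 179). MI-E stood at 0.954 of MI (0.951 to 0.958). These sums rest on 479503 UMIs in MI-E, 521504 in MI and 907 in Sham. The state of these cells differed as well: most MI-E and MI cells of the class lay in clusters 2, 3, 4, 6, 7 and 14, and most Sham cells in clusters 8, 10, 11 and 12.

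**Figure D1:**
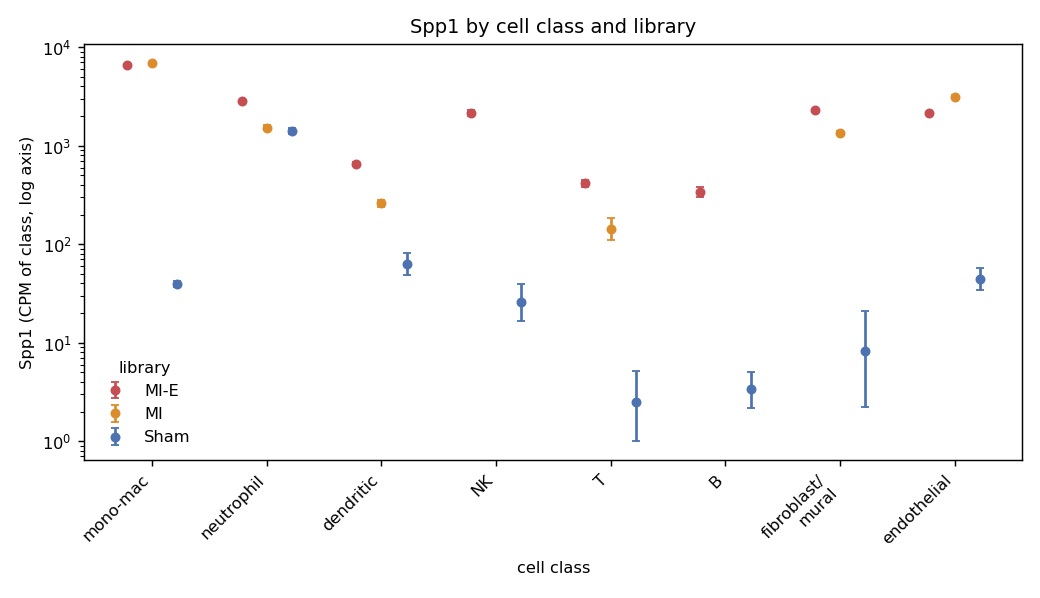
Spp1 level in CPM of the class on a log axis, by cell class, for the MI-E, MI and Sham libraries; bars are exact Poisson intervals and classes with under 50 cells are left out, and red blood cells, cells with cardiomyocyte transcripts and unnamed cells are not drawn. Monocyte-macrophage cells stood at 6593 and 6909 CPM in MI-E and MI and at 39.4 CPM in Sham, while Sham neutrophils stood at 1411 CPM.

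Nearly the whole class held at least 1 Spp1 UMI after infarction, and few cells did in Sham. Part of the class held little: 6.99% of MI-E and 6.67% of MI cells had exactly 1 UMI. A further 13.2% and 8.91% had from 2 to under 4. At least 1 Spp1 UMI was found in 95.7% of MI-E cells (95.2 to 96.2), 94.0% of MI cells (93.4 to 94.6) and 4.34% of Sham cells (3.80 to 4.92). With every cell thinned to 1500 UMIs, which leaves out 74, 99 and 1311 shallower cells, the shares were 76.6%, 78.7% and 2.41%. B cells, in which Spp1 is not a typical transcript, gave thinned shares of 40.9% in MI-E (298 cells) and 0.405% in Sham (2719 cells). Without thinning, B cells gave 53.5% in MI-E and 0.677% in Sham. The shares in monocyte-macrophage cells stood above those in B cells of the same library, at median depths of 9607 and 2165.5 UMIs in MI-E and 4191 and 2299 UMIs in Sham. Thinned shares were 41.0% in T cells and 34.9% in dendritic cells of MI-E, and 70.4% and 86.5% unthinned. How much of the share in any class came from RNA of other cells was not tested. At 1500 UMIs no Sham T cell of 688 held an Spp1 UMI, which allows up to 0.436% at that depth, and unthinned 5 of 756 did (0.661%, interval 0.215 to 1.54).

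The number of Spp1 UMIs per cell was very uneven. The median monocyte-macrophage cell held 20 Spp1 UMIs in MI-E and 29 in MI, while 1 cell in 10 held 204 or more in MI-E and 217 or more in MI. The highest cells had 1463 UMIs in MI-E and 1486 in MI, or 9.37% and 6.88% of all UMIs of those cells. The 10% of cells with the most Spp1 held 50.4% of the class's Spp1 UMIs in MI-E and 47.4% in MI. In Sham, 16 cells with at least 10 UMIs held 54.2% of them, and a single cell held 122 of the 907. Without that cell the log2 ratio of MI over Sham was 7.62, against 7.42 with it.

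**Figure D2:**
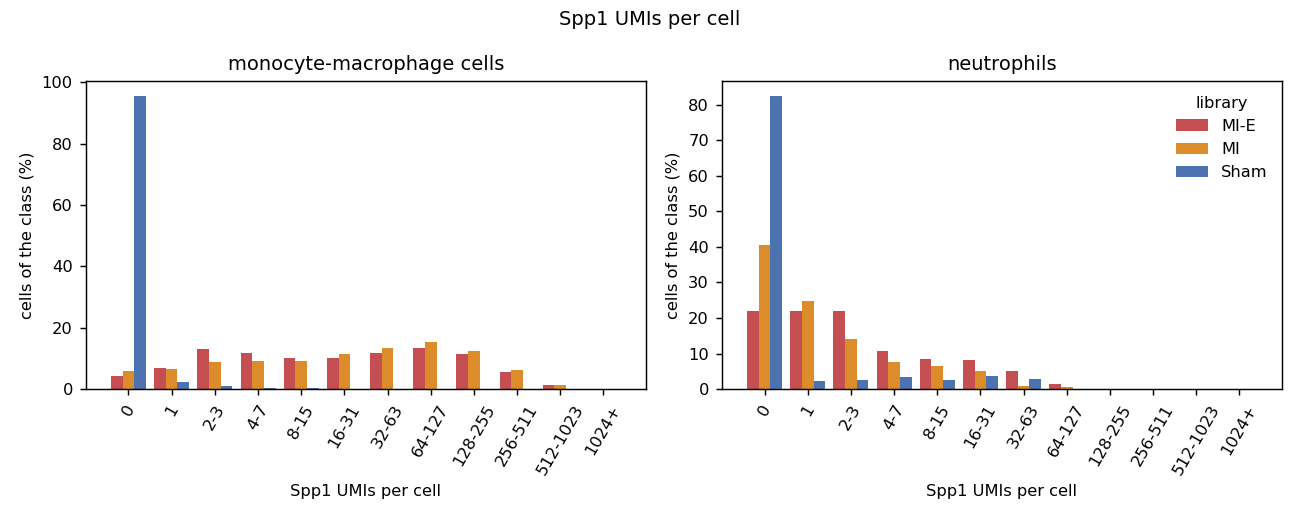
Share of cells (%) by number of Spp1 UMIs per cell, in monocyte-macrophage cells (left) and neutrophils (right), for the MI-E, MI and Sham libraries. MI-E and MI monocyte-macrophage cells spread from 0 to 1463 and 1486 UMIs, and 95.7% of Sham cells were at 0.

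Among monocyte-macrophage clusters the level of Spp1 differed over 10-fold within each infarct library. It was highest in cluster 4, led by Gpnmb, Fabp5 and Syngr1, genes of lipid-laden macrophages, at 11858 CPM in MI-E and 11978 in MI. Next came cluster 7, led by Syngr1, Trem2 and Ccl8, at 9949 CPM in MI-E and 8735 in MI. Cluster 3, led by Fn1, Arg1 and Areg, stood at 8193 CPM in MI-E and 7019 in MI. These 3 clusters held the top of the order in both infarct libraries.

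Cells with other programs held less. Cluster 18, led by the interferon-induced genes Ifit3 and Rsad2, stood at 5866 CPM in MI-E and 5527 in MI, and cycling cluster 14 at 5354 and 5634 CPM. Cluster 2, led by Il1b, Cxcl3 and Ptgs2, had 5411 CPM in MI-E and 3379 in MI. Saa3 cells of cluster 25, in MI, held 2399 CPM. Lower still were the Lyve1 and Cbr2 cells of cluster 17, resident-type macrophages, at 2086 CPM in MI-E and 1921 in MI, and the Ly6c2 monocytes of cluster 6 at 1050 and 958 CPM. Cluster 26, led by Ace, Ear2 and Itgal, held 413 CPM in MI-E and 1.87, from 1 UMI, in Sham. Of the clusters found mainly in Sham, cluster 10 stood highest, at 109 CPM. Its cells were shallow, with a median of 788 UMIs, and Igkc, S100a9 and Cd79a, genes of B cells and neutrophils, led it within the class. Clusters 8, 12 and 11 of Sham held 34.9, 11.8 and 11.7 CPM.

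Only clusters 6 and 17 held at least 50 cells in both MI and Sham. There Spp1 stood at 958 CPM in MI and 83.0 in Sham in cluster 6, and at 1921 CPM in MI and 16.9 in Sham in cluster 17. The mean of the log2 ratios over these clusters was 5.13, below the 7.42 of the whole class. The Sham values rest on few cells: 1 cell held 41 of the 70 Spp1 UMIs of cluster 6, and 1 held 6 of the 9 of cluster 17. Without these cells, a choice made after the values were seen, Sham stood at 34.7 and 5.79 CPM and the mean log2 ratio was 6.45. In the 8 clusters shared by MI-E and MI, Spp1 was higher in MI-E in 6 and lower in 2, with log2 ratios between -0.074 and 0.68. Of the 8 intervals, 6 lay above 1 and 2 below. The whole class gave -0.068, so the sign of this small difference turned when clusters were weighted equally (0.17).

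**Figure D3:**
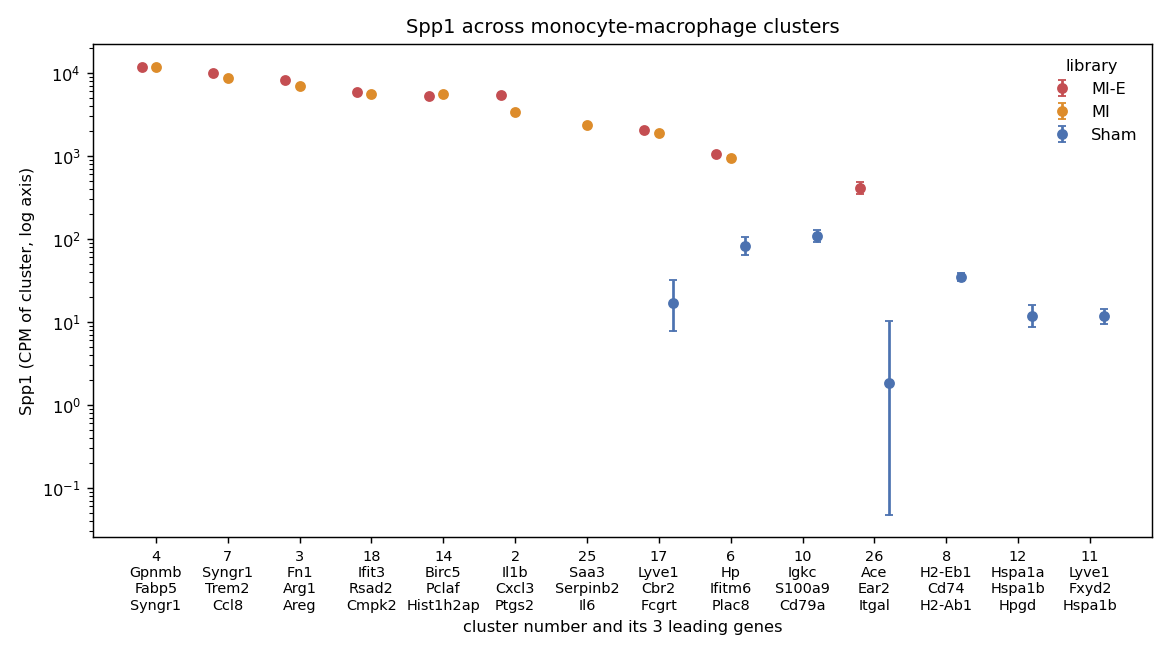
Spp1 level in CPM of the cluster on a log axis, for monocyte-macrophage clusters ordered by level, with exact Poisson intervals; only clusters with at least 50 cells of a library have a point for it. In the 8 shared clusters, MI-E and MI points run from 1050 and 958 CPM in cluster 6 to 11858 and 11978 CPM in cluster 4. They lie furthest apart in cluster 2, at 5411 and 3379 CPM. Sham points lie between 1.87 and 109 CPM.

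Neutrophils were the class in which Sham was not low. Their Spp1 level was 2812 CPM in MI-E (2775 to 2848), 1529 CPM in MI (1446 to 1616) and 1411 CPM in Sham (1327 to 1498). MI over Sham gave a ratio of 1.08 (0.999 to 1.18), within counting error, and MI-E over MI gave 1.84 (1.74 to 1.95). Per cell, that was 7.61 Spp1 UMIs in MI-E, 3.50 in MI and 2.60 in Sham. Neutrophils held 48.1% of all Spp1 UMIs of the Sham library and monocyte-macrophage cells 41.2%. In the infarct libraries, monocyte-macrophage cells held 89.0% in MI-E and 96.7% in MI.

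In all 3 libraries most neutrophil Spp1 transcripts came from a minority of cells. Only 17.4% of Sham neutrophils (13.9 to 21.5) had an Spp1 UMI, against 78.1% in MI-E and 59.6% in MI. Exactly 1 UMI was found in 22.1% of MI-E, 24.9% of MI and 2.21% of Sham neutrophils. B cells of MI-E gave a share of 53.5%, at a median of 2165.5 UMIs against 2105 in MI-E neutrophils. The 32 Sham neutrophils with at least 10 Spp1 UMIs, 7.86% of the class, held 85.8% of its Spp1. Such cells were 20.6% of MI-E and 10.5% of MI neutrophils, and held 80.1% and 66.9%. Of the 407 Sham neutrophils, 380 were in cluster 21, led by Retnlg and Wfdc21, whereas MI-E and MI neutrophils lay mostly in clusters 5 (interferon-induced genes) and 9 (Il23a, Il1a and Tnf). In cluster 21, Spp1 stood at 3284 CPM in the 64 MI-E cells and 1502 CPM in the 380 Sham cells. Cluster 5 stood at 2866 CPM in MI-E and 1704 in MI, and cluster 9 at 2676 and 1089 CPM. Spp1 was thus higher in MI-E than in MI within both clusters. The clusters that made up the class differed between libraries, and their part in the Spp1 ratios was not tested.

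Macrophage transcripts were counted in neutrophils beside Spp1. All 12 macrophage markers were detected in neutrophils of MI-E and MI and 11 in Sham, with Mertk at 0, and their summed level was 1465, 1500 and 1396 CPM, against 15567, 17905 and 41430 CPM in the monocyte-macrophage cells of MI-E, MI and Sham. For each UMI of the macrophage complement genes C1qa, C1qb and C1qc together, neutrophils held 10.5 Spp1 UMIs in MI-E, 4.90 in MI and 5.41 in Sham. Monocyte-macrophage cells held 1.35, 1.14 and 0.00283. In neutrophils with no C1q UMI, a selection made after the values were seen, Spp1 stood at 2765 CPM in MI-E, 1736 CPM in MI and 1277 in Sham. C1q averaged 0.722 UMIs per neutrophil in MI-E, 0.715 in MI and 0.482 in Sham, so a neutrophil without a C1q UMI may still hold macrophage RNA, and its part in the Spp1 level was not tested.

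Dendritic cells, T cells, B cells and NK cells carried Spp1 at lower levels than neutrophils of the same library. Dendritic cells stood at 653 CPM in MI-E, 259 CPM in MI and 63.2 in Sham. T cells had 414 CPM in MI-E, 144 CPM in MI and 2.50 in Sham, and B cells 342 CPM in MI-E and 3.39 in Sham. Their Spp1 UMIs per C1q UMI in MI-E were 0.956 in dendritic cells, 0.735 in T cells and 1.51 in B cells, against 1.35 in monocyte-macrophage cells. NK cells of MI-E stood at 2156 CPM, but 1 cell of 83 held 529 of their 946 UMIs, and without it the level was 999 CPM. NK cells of Sham stood at 26.1 CPM, and at 14.9 CPM without their highest cell.

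Fibroblasts or mural cells and endothelial cells held more Spp1 in MI-E and MI than in Sham. Fibroblasts or mural cells held 2283 CPM in MI-E, 1351 CPM in MI and 8.15 CPM, from 4 UMIs in 1 cell, in Sham. One MI-E cell with 1782 UMIs gave 20.5% of that class's Spp1. Endothelial cells held 2142 CPM in MI-E, 3141 CPM in MI and 44.8 in Sham. All 12 macrophage markers were detected in both classes, summing to 2742, 3961 and 10544 CPM in fibroblasts or mural cells and 7604, 9977 and 6919 CPM in endothelial cells of MI-E, MI and Sham. Monocyte-macrophage cells summed to 15567, 17905 and 41430 CPM. Spp1 UMIs per C1q UMI were 0.891 in MI-E and 0.752 in MI in endothelial cells, and 3.57 and 1.25 in fibroblasts or mural cells. Monocyte-macrophage cells gave 1.35 and 1.14. The part of macrophage RNA in the Spp1 of these 2 classes was not tested. In Sham, endothelial cluster 19 held no Spp1 UMI in 193 cells, and all 61 came from the 215 cells of cluster 27.

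In order of level, unnamed cells aside, MI-E ran from monocyte-macrophage cells through cells with cardiomyocyte transcripts, neutrophils, fibroblasts or mural cells, NK cells, endothelial cells, dendritic cells and T cells to B cells. The 126 cells with cardiomyocyte transcripts stood at 6195 CPM (6053 to 6340) in MI-E, and this class had under 50 cells in MI and Sham. Its macrophage markers summed to 19563 CPM, against 15567 CPM in MI-E monocyte-macrophage cells, and its cardiomyocyte markers to 794 CPM. It held 0.961 Spp1 UMIs per C1q UMI, against 1.35 in monocyte-macrophage cells. The part of macrophage RNA in its Spp1 was not tested. The intervals of fibroblasts or mural cells and NK cells overlapped, as did those of NK and endothelial cells and of T and B cells. In MI the order was monocyte-macrophage cells, endothelial cells, neutrophils, fibroblasts or mural cells, dendritic cells and T cells, and no neighbouring intervals overlapped. In Sham, neutrophils came first and the next were dendritic cells, endothelial cells, monocyte-macrophage cells, NK cells, red blood cells (17.6 CPM, from 4 UMIs in 110 cells), fibroblasts or mural cells, B cells and T cells. From dendritic cells on, each interval overlapped the next.

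Among the measured receptor genes in monocyte-macrophage cells, Cd44 had the largest class ratio between MI-E and MI. Itgb1 followed in the other direction, at 0.693. Cd44 stood at 598 CPM in MI-E (593 to 604), 379 CPM in MI (374 to 383) and 244 CPM in Sham (237 to 250). MI-E over MI was 1.58 (1.56 to 1.60), MI over Sham 1.55 (1.51 to 1.60) and MI-E over Sham 2.45 (2.39 to 2.52). Within clusters shared by MI-E and MI, Cd44 was higher in MI-E in 8 of 8, with log2 ratios of 0.33 to 0.56. The 8 intervals all lay above 1, and the median log2 ratio over them was 0.44, against 0.66 for the class.

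The MI over Sham difference in Cd44 did not appear in the clusters that both libraries shared. In Ly6c2 monocytes of cluster 6, Cd44 stood at 881 CPM in MI-E, 700 CPM in MI and 747 in Sham. In resident-type macrophages of cluster 17 it stood at 319 CPM in MI-E, 234 CPM in MI and 210 in Sham. The mean log2 ratio of MI over Sham over these clusters was 0.03, and neither interval excluded 1. Clusters 6 and 17 held only 408 and 297 of the 6657 MI cells of the class, and 133 and 92 of the 5258 Sham cells. The other cells of the class could not be compared within clusters. For MI-E over Sham, clusters 6, 17 and 26 were shared, and the mean log2 ratio was 0.20, against 1.29 for the class. Cd44 was higher in MI-E in clusters 6 and 17 and lower in cluster 26, at 740 CPM in MI-E and 873 in Sham, and each of these 3 intervals excluded 1.

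The αv integrin chains followed different patterns. Itgav, the chain common to every αv pair, stood at 77.8 CPM in MI-E, 59.4 CPM in MI and 40.6 in Sham. MI-E over Sham was 1.91 (1.79 to 2.05), MI over Sham 1.46 (1.36 to 1.57) and MI-E over MI 1.31 (1.26 to 1.36). It was higher in MI-E than in MI in 8 of 8 shared clusters, with 7 intervals above 1. Itgb5, its β5 partner, stood at 127 CPM in MI-E, 129 CPM in MI and 70.9 in Sham. Its ratio was 1.82 (1.72 to 1.91) for MI over Sham, 1.79 (1.70 to 1.89) for MI-E over Sham, and 0.985 (0.958 to 1.01) for MI-E over MI. Within clusters 6 and 17, the mean log2 ratio of MI over Sham was 1.06 for Itgav, against 0.54 for the class, with 1 of 2 intervals above 1. The Itgav log2 ratios were 1.87 in cluster 6 and 0.26 in cluster 17. For Itgb5 the log2 ratios were 2.32 in cluster 6 and 0.67 in cluster 17, against 0.85 for the class, with both intervals above 1. The Sham values rest on few UMIs: 8 for Itgav and 15 for Itgb5 in cluster 6, and 25 and 43 in cluster 17.

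Itgb3, the β3 chain of the best-known osteopontin receptor, was close to absent from monocyte-macrophage cells. It gave 34 UMIs in 6651 MI-E cells, 32 in 6657 MI cells and 8 in 5258 Sham cells, at 0.467, 0.424 and 0.347 CPM. These are under the 5 CPM set for a measured gene, so no change was read from them. UMIs of both Itgav and Itgb3 were found in 19 MI-E cells (0.286%), 13 MI cells (0.195%) and 1 Sham cell (0.0190%), and those of both Itgav and Itgb5 in 34.4%, 31.9% and 4.77%. With cells thinned to 1500 UMIs, no cell held both Itgav and Itgb3, which at that depth allows shares of up to 0.0456% in MI-E, 0.0457% in MI and 0.0760% in Sham. Itgav and Itgb5 were then found together in 1.98%, 1.60% and 0.633%. A cell without a UMI may still hold the transcript.

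The β1 and α4 chains were lower in MI-E than in MI. Itgb1, which pairs with many α chains, stood at 231 CPM in MI-E, 333 CPM in MI and 274 in Sham. MI-E over MI was 0.693 (0.680 to 0.707), MI over Sham 1.22 (1.19 to 1.25) and MI-E over Sham 0.844 (0.820 to 0.869). In the shared clusters Itgb1 was lower in MI-E than in MI in 8 of 8, with all 8 intervals below 1. Itga4, the α chain of the thrombin-exposed site's receptor, stood at 33.6 CPM in MI-E, 38.1 CPM in MI and 55.5 in Sham. MI-E over Sham was 0.605 (0.565 to 0.648), MI over Sham 0.686 (0.642 to 0.733) and MI-E over MI 0.882 (0.835 to 0.931). It was lower in MI-E in 7 of 8 shared clusters, with 4 intervals below 1. Within clusters 6 and 17, the mean log2 ratio of MI over Sham was -1.25 for Itga4, against -0.53 for the class, with both intervals below 1.

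**Figure D4:**
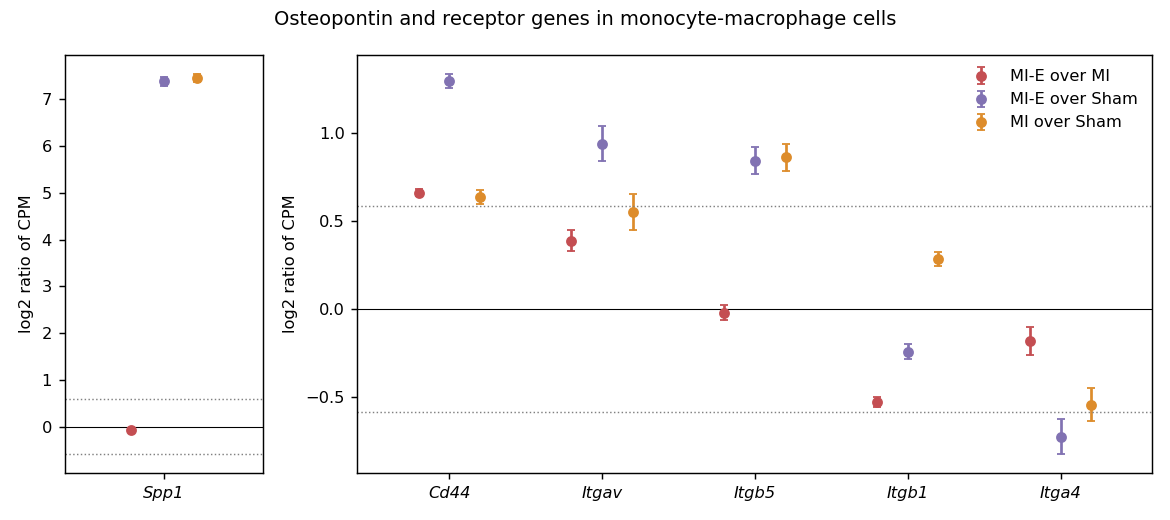
Log2 ratio of CPM in monocyte-macrophage cells for Spp1 (left, own axis) and the 5 measured receptor genes (right), with exact intervals for counting error; dotted lines mark 1.5-fold. Cd44 and Itgav were higher in MI-E than in MI, Itgb1 was lower, and Itgb5 lay at a ratio of 0.985.

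The counts past 1.5-fold are set against all measured genes, and with 5 receptor genes none of them is read as particular to the receptors. Of the 5 measured receptor genes, Cd44 and Itgb5 were at least 1.5-fold higher in MI than in Sham and none was lower, where 25.1% of all measured genes were higher and 18.5% lower. Itgav and Itga4, at ratios of 1.46 and 0.686, lay just inside that limit. Between MI-E and MI, Cd44 was 1.5-fold higher and none was lower, where 4.6% of genes were higher and 5.43% lower. Between MI-E and Sham, Cd44, Itgav and Itgb5 were higher and Itga4 lower, where 25.4% were higher and 19.5% lower. Over all measured genes the median log2 ratio was 0.12 for MI over Sham, 0.02 for MI-E over MI and 0.12 for MI-E over Sham. Scaling by trimmed means (TMM) moved every log2 ratio by 0.19, 0.01 and 0.20 in the same order, which brought Itgav to 0.72 for MI over Sham and Itga4 to -0.52 for MI-E over Sham.

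Within a library, the receptor genes also differed with the Spp1 level of the cell. Monocyte-macrophage cells were split into 4 groups of equal size by their Spp1 share, and receptor levels were taken after leaving out Spp1 UMIs. Itga4 stood at 26.2 CPM in the top group and 46.1 CPM in the bottom group of MI-E, and at 27.3 and 51.9 CPM in those of MI. Cd44 stood at 518 CPM in the top and 662 CPM in the bottom group of MI-E, and at 325 and 420 CPM in MI. Both genes were therefore lower in the top than in the bottom group, in both libraries. Cd44 was highest in the group next to the bottom, at 678 CPM in MI-E and 428 in MI. Itgav, Itgb1 and Itgb5 were higher in the top than in the bottom group, with ratios of 1.46, 1.43 and 1.53 in MI-E and 1.15, 1.15 and 1.12 in MI. The top group was not always the highest. In MI, the group next to the bottom stood at 63.1 CPM for Itgav and 134 for Itgb5, and the top group at 60.6 and 131. In MI-E, Itgav stood at 85.6 CPM in the group next to the top and 84.0 in the top. Cells of the top group were deeper, with medians of 11958 and 7769 UMIs in the top and bottom groups of MI-E. The part of depth and of cluster in these ratios was not tested.

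Outside macrophages, each receptor gene had its own distribution. Cd44 was highest in neutrophils, at 1687 CPM in MI-E, 1060 CPM in MI and 1779 in Sham. Neutrophil Cd44 in MI was 0.596 of Sham (0.547 to 0.649), and MI-E over MI was 1.59 (1.49 to 1.71). In T cells it stood at 207 CPM in MI-E, 78.6 CPM in MI and 47.1 in Sham, and in endothelial cells at 252, 257 and 61.7 CPM. The Cd44 ratio of MI-E over MI was 2.63 in T cells, 1.36 in fibroblasts or mural cells, 1.14 in dendritic cells and 0.979 in endothelial cells. Whether the ratio differs between classes was not tested.

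Itgav and Itgb5 shared a high level in fibroblasts or mural cells. There Itgav stood at 103 CPM in MI-E, 92.2 CPM in MI and 61.1 in Sham, and Itgb5 at 149, 141 and 161 CPM. In neutrophils Itgb5 gave only 100 UMIs in 2989 MI-E cells, 15 in MI and 1 in Sham. Dendritic cells of Sham held no Itgb5 UMI in 128 cells, and MI-E and MI stood at 24.2 and 23.0 CPM. At this depth a count of 0 allows up to 3.16 CPM in Sham.

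**Figure D5:**
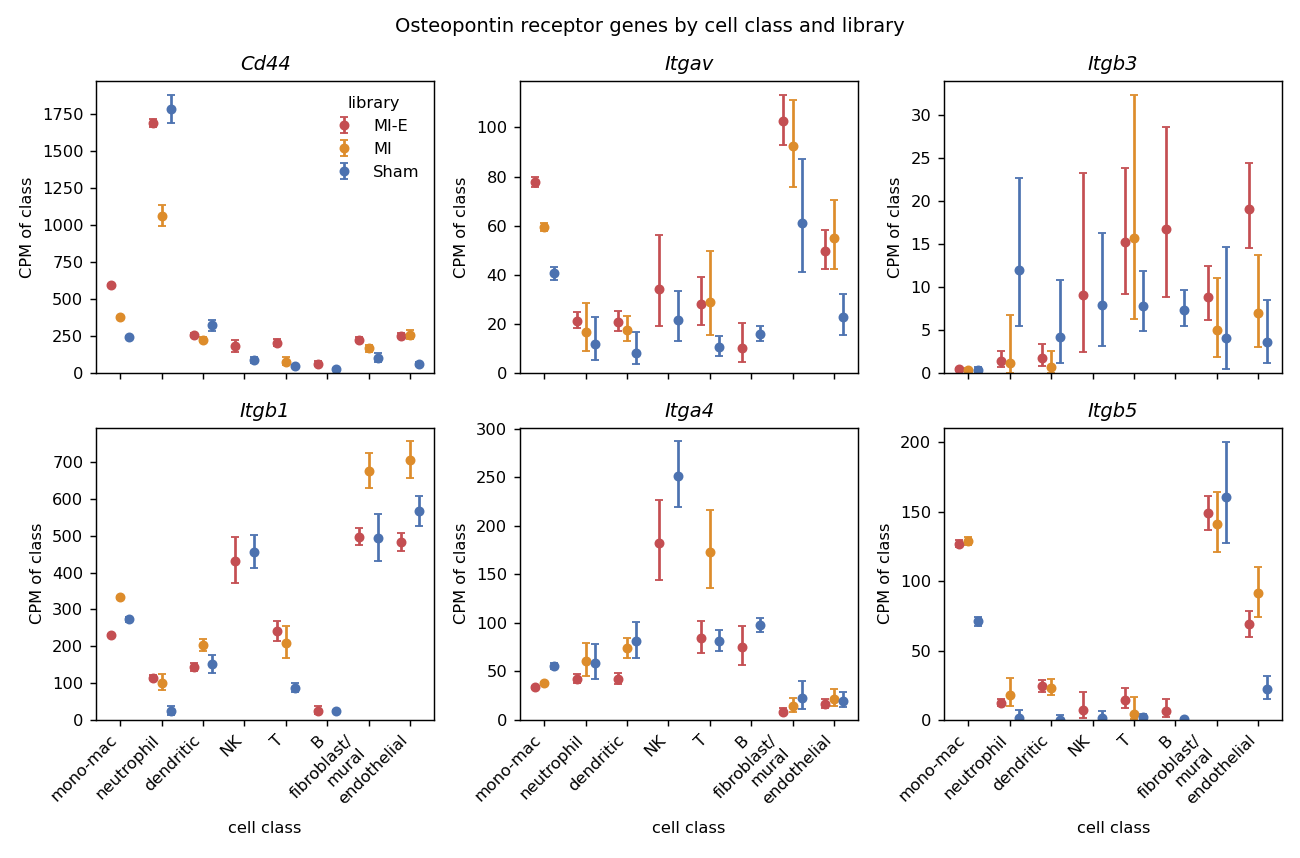
Level of the 6 receptor genes in CPM of the class, by cell class, for the MI-E, MI and Sham libraries, with exact Poisson intervals; axes differ between panels and classes with under 50 cells are left out, and the same classes are drawn as for Spp1. Cd44 is highest in neutrophils, at 1687, 1060 and 1779 CPM in MI-E, MI and Sham, and Itgb3 is under 1 CPM in monocyte-macrophage cells of all 3.

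The β1 and α4 chains stood high together in NK cells. Itgb1 stood at 431 CPM in MI-E and 456 in Sham NK cells, and Itga4 at 182 and 252 CPM. At 1500 UMIs per cell, both were found together in 12.3% of MI-E (81 cells) and 19.0% of Sham NK cells (274 cells), against 1.47%, 2.23% and 2.96% of monocyte-macrophage cells of MI-E, MI and Sham. Endothelial cells had high Itgb1, at 483 CPM in MI-E, 706 CPM in MI and 567 in Sham, with Itga4 at 16.6, 21.9 and 19.8 CPM. Within monocyte-macrophage cells, Itga4 was highest in the Ace and Ear2 cells of cluster 26, the nonclassical monocytes, at 190 CPM in MI-E and 323 in Sham.

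Most Itgb3 transcripts of MI-E and Sham lay outside monocyte-macrophage cells, which held 17.9% of 190 UMIs in MI-E, 50.8% of 63 in MI and 6.84% of 117 in Sham. Endothelial cells held Itgb3 at 19.1 CPM in MI-E (14.6 to 24.5), 7.01 CPM in MI and 3.67 in Sham. T cells had 15.3 CPM in MI-E, 15.7 CPM in MI and 7.86 in Sham, and B cells 16.8 CPM in MI-E and 7.35 in Sham. All these values rest on at most 61 UMIs a class. Endothelial Itgb3 in MI-E over MI was 2.72 (1.30 to 6.59) and in MI over Sham 1.91 (0.550 to 7.41), the second within counting error.

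Genes that act around osteopontin were read from lists in monocyte-macrophage cells, counting genes of at least 5 CPM and 1.5-fold change. The counts stand beside 25.1% of all measured genes higher and 18.5% lower in MI than in Sham, and 4.6% higher and 5.43% lower in MI-E than in MI, and nothing particular to a list is read from them. Of the enzymes that cut or modify osteopontin, 6 of 10 were measured, 4 higher and 1 lower in MI than in Sham, with a median log2 ratio of 1.23. Tgm2, a transglutaminase that crosslinks osteopontin, stood at 238 CPM in MI and 17.6 in Sham, a ratio of 13.5 (12.2 to 14.9). Fam20c, the kinase that phosphorylates it, stood at 66.5 CPM in MI and 7.98 in Sham (ratio 8.32). Mmp12, a macrophage elastase, stood at 58.8 CPM in MI-E, 115 CPM in MI and 48.2 in Sham. It was the gene of this list that was lower in MI-E than in MI, with 5 others between the limits and a median of 0.05. Plau, the urokinase gene, was at 27.7 CPM in MI and 80.0 in Sham.

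The integrins of leukocytes, other α chains and other ligands formed further lists. Of 7 leukocyte integrin genes, 5 were measured, and 4 were higher and 1 lower in MI than in Sham (median 0.90). The higher included Itgam at 240 CPM in MI and 94.8 in Sham and Itgb2 at 230 and 132 CPM, the chains of complement receptor 3. In MI-E over MI, 2 of 5 were higher, and Itgb7, a partner of α4, stood at 52.9 CPM in MI-E and 23.4 in MI. Of 11 other α chains, 3 were measured, with 1 higher and 1 lower in MI than in Sham (median 0.09), and Itga6, a laminin receptor chain, stood at 91.7 CPM in MI and 14.1 in Sham. Of 17 other ligands of these integrins, 6 were measured, with 2 higher and 3 lower in MI than in Sham (median -0.49). The higher were fibronectin, Fn1, at 585 CPM in MI and 61.8 in Sham, and thrombospondin 1, Thbs1, at 1846 CPM in MI-E, 961 CPM in MI and 113 in Sham.

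The remaining lists held genes in both directions. Of 13 genes of CD44 ligands, partners and hyaluronan receptors, 8 were measured for MI over Sham, with 1 higher and 2 lower (median 0.40). The lower were Lyve1, a hyaluronan receptor and resident macrophage marker, at 19.7 CPM in MI and 302 in Sham, and Cd74, a partner of CD44 and the invariant chain of MHC class II, at 1480 and 12830 CPM. In MI-E over MI, 9 were measured, with 1 higher and 2 lower (median -0.13). Of 20 integrin adaptors, 17 were measured for MI over Sham, with 4 higher and 3 lower (median 0.01), and Fermt3, kindlin-3, stood at 175 CPM in MI and 111 in Sham. None of 15 measured adaptors passed 1.5-fold between MI-E and MI. The osteopontin relatives Ibsp, Dmp1, Mepe and Dspp and the further αv partners Itgb6 and Itgb8 were all under 5 CPM.

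Genes with a pattern like that of Spp1 were sought over the sums of each class and library. Over 22 such sums, the highest Pearson correlations of log2(CPM + 1) were those of Pkm (0.91), Ctsd (0.90), Saa3 (0.90), Tcirg1 (0.89) and F10 (0.89), among 5567 genes. Among the receptors, the correlation was 0.70 for Cd44, 0.47 for Itgb5, 0.44 for Itgav, 0.21 for Itgb1 and -0.35 for Itga4. Over 25 sums of monocyte-macrophage clusters, the highest were Pdpn (0.98), Mmp14 (0.96), Arg1 (0.95), Gpnmb (0.94) and Psen2 (0.93), among 4305 genes. There Itgb5 had 0.69, Itgav 0.53, Cd44 0.24, Itgb1 -0.01 and Itga4 -0.61. The sums share libraries and depth, and the infarct and Sham sums lie far apart, so these values describe likeness and no more.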

How the data were processed

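Leukocytes sorted on CD45 from mouse hearts were profiled with 10x 3′ chemistry (Kit v3.1), 1 library each for MI-E, MI and Sham. The deposited files hold the authors' raw UMI counts per gene and cell barcode, from Cell Ranger 5.0.1 and mm10 per the submitters' processing notes. The annotation release and counting settings are not given in the sources used here. Total depth was 104562768 UMIs in MI-E, 98814001 in MI and 41140109 in Sham, over 12707, 9095 and 11357 barcodes. Libraries shared few barcodes, 26 between MI-E and MI, 45 between MI-E and Sham and 35 between MI and Sham.

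Cells under 200 genes or over 10% mitochondrial UMIs were dropped. These filters removed 31 and 397 barcodes in MI-E, 48 and 216 in MI and 60 and 192 in Sham. Scrublet, in scanpy 1.11.5, marked 311 doublets in MI-E and 436 in Sham by its automatic threshold, and 643 in MI at an expected rate of 0.8% per 1000 barcodes. Cells were scaled to 10000 counts and logged, and 2000 variable genes without the 7 genes gave 30 components, 15 neighbours and Leiden clusters (leidenalg 0.10.2) at resolution 1. Libraries were not integrated. A cluster took the name of the best-scoring marker list with at least 3 markers in at least 20% of its cells, and stayed unnamed when it was shallow with no own marker, or had at least 2 markers of another class, among its 10 leading genes. These limits were set after the clusters were seen. Unnamed were 560 MI-E, 503 MI and 213 Sham cells.

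UMIs were summed per class and library, then scaled to CPM. A pseudocount of 1 CPM went into log2 ratios and none into folds. Intervals are exact Poisson for levels, exact conditional for ratios and Clopper-Pearson for shares (scipy 1.17.1), and cover counting error only. Genes at 0 are bounded against 3 counts over the class. Receptor and list genes needed a mean of 5 CPM to count as measured, and past 1.5-fold to count as higher or lower. Named genes of the lists had at least 50 CPM in the higher library, at most 4 per list and contrast by size, and the 5 most correlated genes are named for likeness. The ratio code was tested on simulated counts. The 7 genes, lists and rules were chosen with earlier results of these data known.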

Additional observations from a re-analysis of the deposited data

Results flagged for a closer look

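For Cd44, MI over Sham went in opposite directions in different classes. The ratio was 0.596 in neutrophils and 0.701 (0.610 to 0.806) in dendritic cells, against 1.55 in monocyte-macrophage cells, 1.67 in T cells, 1.58 in fibroblasts or mural cells and 4.17 in endothelial cells. The ratios rest on 1 library per group, and the difference between classes was not tested. Neutrophils of MI lay mostly in clusters 5 and 9 and those of Sham in cluster 21. Of T cells, 632 of 756 in Sham and 30 of 74 in MI lay in cluster 15. The T cell value of MI rests on 35 UMIs. In monocyte-macrophage clusters 6 and 17, shared by MI and Sham, the mean log2 ratio was 0.03.

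For Itgb3, MI-E over Sham also went in opposite directions. The ratio was 0.124 in neutrophils, from 12 UMIs in MI-E and 9 in Sham, against 2.28 in B cells, from 13 and 52 UMIs, and 5.19 in endothelial cells, from 61 and 5 UMIs. This difference was not tested either.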

How the results depend on the processing

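No paired analysis was possible because each group has 1 library, and leaving out a replicate was not possible for the same reason. The Spp1 log2 ratio in monocyte-macrophage cells was 7.35 for MI-E over Sham, -0.068 for MI-E over MI and 7.42 for MI over Sham. In that order it was 7.55, -0.053 and 7.61 with TMM, 7.12, -0.16 and 7.28 with every cell weighted equally, 7.50, -0.053 and 7.56 with predicted doublets kept, 7.49, -0.077 and 7.57 at Leiden resolution 2, and 5.90, 0.17 and 5.13 within shared clusters. With a pseudocount of 10 CPM it was 7.06 for MI-E over Sham and 7.13 for MI over Sham, and with each library clustered alone it was -0.039 for MI-E over MI. Chosen after seeing the data, leaving out the shallow, mostly Sham cluster 10 gave 7.53 and 7.59 for MI-E and MI over Sham, and leaving out the Sham cell with the most Spp1 gave 7.55 and 7.62, and leaving out the highest Sham cell of each cluster shared by MI and Sham gave 6.45 within those clusters for MI over Sham.

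The number of receptor genes past 1.5-fold between MI-E and MI was 1, and 2 with every cell weighted equally (Cd44 and Itgb1) and 0 within shared clusters. For MI over Sham it was 2, and 3 with TMM, with every cell weighted equally and within shared clusters, and for MI-E over Sham it was 4, and 3 with TMM and within shared clusters. Each of the 5 measured receptor genes kept the sign of its log2 ratio in all 3 comparisons under 12 alternatives, and the Cd44 value for MI over Sham ranged from 0.03 within shared clusters to 0.86 with every cell weighted equally. The share of Spp1 UMIs in monocyte-macrophage cells was 89.0% in MI-E, 96.7% in MI and 41.2% in Sham, against 85.7%, 94.7% and 35.2% with doublets kept and 88.3%, 96.2% and 36.6% at resolution 2. With an unnamed shallow cluster added it was 89.3% in MI-E and 97.0% in MI. The share of these cells with an Spp1 UMI was 86.3%, 86.1% and 3.49% when thinned to 3000 UMIs and 95.7%, 94.0% and 4.34% unthinned. Without the filter on low values, list genes past 1.5-fold numbered 52, 30 and 52 for MI-E over Sham, MI-E over MI and MI over Sham, against 28, 7 and 27. By Spearman correlation, 5 of the 5 genes most like Spp1 over classes remained and 1 of 5 over clusters. The causes of these changes were not tested.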
